A study of Mus musculus with 2 samples.

Results

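Dppa2, Dppa3, Dppa4 and Dppa5a are 4 of the 17408 genes in the table of values, taken by name as the developmental pluripotency-associated genes measured in the 2 libraries of the series. Each library was a droplet 3' RNA library of unsorted mouse embryonic fibroblasts (MEFs) on day 16 of reprogramming. Oct4, Sox2, Klf4 and c-Myc were switched on in the MEFs by doxycycline from the STEMCCA transgene, and the cells were grown with doxycycline, serum, LIF and ascorbic acid. Both libraries belong to 1 group and no untreated MEF or embryonic stem cell library was analysed here. The study worked with a pair of separate STEMCCA mouse systems, and the labels do not say which system, mouse or culture each library came from. In every ratio or SD between the replicates, a difference of mouse system, culture or library preparation therefore cannot be told apart. Replicate 1 held 3109 cells and replicate 2 held 3914 cells.

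As a group the Dppa genes share a name and not 1 protein family. Dppa2 and Dppa4 are related genes that encode SAP-domain DNA-binding proteins that act together on chromatin in the early embryo, in the germline and in pluripotent cells. Dppa3, also called Stella or PGC7, encodes a maternal and germline protein that protects DNA methylation in the zygote and binds the methylation cofactor Uhrf1. Dppa5a, also called Esg1, encodes a KH-domain RNA-binding protein that is abundant in embryonic stem cells. The study reported Dppa3, Dppa4 and Dppa5a among the pluripotency genes activated later along its reprogramming course.

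On GRCm38 with the GENCODE M21 annotation, Dppa4 (ENSMUSG00000058550.15) lies on chromosome 16 from 48283733 to 48294237 on the plus strand. Dppa2 (ENSMUSG00000072419.5) follows on the same strand from 48303908 to 48319723, after a gap of 9670 bp with no other protein-coding gene nearer to either. Dppa3 (ENSMUSG00000046323.8) lies on chromosome 6 from 122626410 to 122630272 on the plus strand, and its nearest protein-coding neighbour, Gdf3, is 16322 bp away. Dppa5a (ENSMUSG00000060461.5) lies on chromosome 9 from 78367052 to 78368177 on the minus strand, 7931 bp from Ooep.

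Processed copies of these genes are spread over the mouse genome and may bear on which reads could be counted. At an identity of at least 90%, transcripts of 6 other genes matched Dppa2, 3 matched Dppa3, 2 matched Dppa4 and 9 matched Dppa5a. Among these 20 matches, Pigp alone was in the table. One Pigp transcript matched Dppa5a at 95.9% over 417 bases that run past the Dppa5a stop codon. Pigp itself was measured at 0.818 UMIs per 10000 in pluripotent-like cells and 0.627 in other cells of replicate 1, and at 0.379 and 0.559 in replicate 2. It was therefore not raised in step with Dppa5a, and any reads split or lost between the copies cannot be recovered from the table. The last 180 coding bases of each gene, stop codon included, are given 5′ to 3′. They end at base 936 of 1948 in the Dppa2 transcript and 566 of 833 in Dppa3. In Dppa4 they end at 766 of 1271 and in Dppa5a at 435 of 619. Reads of a 3' library may thus fall past them. None of the annotated transcripts that matched Dppa2, Dppa3 or Dppa4 reached there. Only annotated transcripts were searched, so copies of the 3' ends elsewhere in the genome could not be found. Capitals mark the bases at which 1 copy differs, namely the one with the highest alignment score among those covering the stretch. For Dppa5a this was Pigp, although Gm6083 also covers the stretch and matched at a higher identity, 96.9% over 357 bases.
Dppa2: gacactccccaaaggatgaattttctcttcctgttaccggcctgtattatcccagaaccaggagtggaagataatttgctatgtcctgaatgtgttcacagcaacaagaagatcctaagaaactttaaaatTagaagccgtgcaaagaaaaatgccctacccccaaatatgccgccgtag
Dppa3: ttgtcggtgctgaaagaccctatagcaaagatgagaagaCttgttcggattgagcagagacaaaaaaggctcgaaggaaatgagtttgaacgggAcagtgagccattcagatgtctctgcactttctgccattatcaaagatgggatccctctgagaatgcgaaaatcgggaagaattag
Dppa4: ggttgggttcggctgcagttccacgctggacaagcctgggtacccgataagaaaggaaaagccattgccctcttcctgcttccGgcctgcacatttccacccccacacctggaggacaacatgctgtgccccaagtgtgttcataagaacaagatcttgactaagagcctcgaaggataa
Dppa5a: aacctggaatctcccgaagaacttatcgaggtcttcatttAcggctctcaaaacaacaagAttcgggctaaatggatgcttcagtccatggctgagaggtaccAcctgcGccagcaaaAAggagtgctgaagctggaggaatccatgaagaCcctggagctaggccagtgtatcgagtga
The copy differed at 1 base from Dppa2, at 2 from Dppa3, at 1 from Dppa4 and, with Pigp as the copy, at 7 from Dppa5a.

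Cells were clustered without the Dppa genes, so their levels played no part in which cells were called pluripotent-like. That cluster held 148 cells of replicate 1, or 4.76% (95% exact binomial interval 4.04 to 5.57), and 393 cells of replicate 2, or 10.04% (9.12 to 11.03). Of 12 pluripotency markers, 11 were at least 2-fold higher there than in the remaining cells, L1td1 being the exception. The markers summed to 19.4 and 18.4 UMIs per 10000 in pluripotent-like cells of the 2 replicates, against 1.57 and 1.29 in all other cells. Summed over 13 fibroblast markers, the level was 3.77 and 3.05 in pluripotent-like cells and 40.2 and 25.7 in other cells. Epithelial markers (2.35 and 3.28 against 0.697 and 0.460) and trophoblast markers (0.250 and 0.260 against 0.0189 and 0.0244) summed higher in pluripotent-like cells. So did endothelial markers (0.530 and 0.597 against 0.246 and 0.240). The part of these markers in the Dppa levels was not tested. Median depth differed between the classes, at 28768 and 26097 UMIs per pluripotent-like cell and 15213 and 13651 per other cell. The libraries shared 12 cell barcodes, and none of those cells was pluripotent-like.

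All 4 Dppa genes were higher in pluripotent-like cells than in other cells, where Dppa2, Dppa3 and Dppa4 were close to 0 and Dppa5a was not. Levels are mean UMIs per 10000 UMIs of a cell, counted at transcript 3' ends and not divided by length. In pluripotent-like cells Dppa4 averaged 1.23 (replicate 1) and 1.17 (replicate 2), and in other cells 0.00401 and 0.0103. Its neighbour and partner Dppa2 was at 0.479 and 0.480, against 0.00260 and 0.00234. The level of Dppa2 was the lowest of the 4 in both libraries and moved least between them.

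Dppa3 averaged 0.930 (replicate 1) and 0.773 (replicate 2) in pluripotent-like cells, and 0.00186 and 0.00532 in other cells. Dppa5a stood far above the rest, at 41.9 and 49.9 against 0.172 and 0.376. It supplied 94.2% and 95.4% of the UMIs of the 4 genes in pluripotent-like cells. The order of the 3'-end levels, Dppa5a over Dppa4 over Dppa3 over Dppa2, was the same in both libraries, and the Poisson intervals of neighbours in that order (counting error only) did not overlap in either. Over the 2 libraries the means were 45.9 ± 5.70 for Dppa5a, 1.2 ± 0.0456 for Dppa4, 0.852 ± 0.111 for Dppa3 and 0.480 ± 0.000121 for Dppa2 (SD, n = 2).

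On the log2(mean + 0.1) scale, pluripotent-like cells exceeded other cells by 6.99 for Dppa5a (SE 0.129, limma adjusted p = 9.0e-08). The difference was 3.60 for Dppa4 (SE 0.087, limma adjusted p = 1.2e-07), 3.20 for Dppa3 (SE 0.098, limma adjusted p = 1.9e-07) and 2.50 for Dppa2 (SE 0.083, limma adjusted p = 2.4e-07). The pseudocount of 0.1 lies above the level of Dppa2, Dppa3 and Dppa4 in other cells, so these differences understate the ratios. All 4 genes were called higher, as were 28.7% of the 11106 genes tested, while 43.0% were called lower and 71.7% in either direction. Dppa2, Dppa3 and Dppa4 passed the filter on low means through the pluripotent-like cells alone, being under 0.02 per 10000 in other cells, so they had to differ and their calls add no support. By size of the difference, Dppa5a ranked 1 of 11106, Dppa4 20, Dppa3 29 and Dppa2 77. The direction was shared by 2 of 2 libraries, which is the least that a test can rest on: an exact permutation test over 2 libraries cannot give a two-sided p below 0.5.

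**Figure D1:**
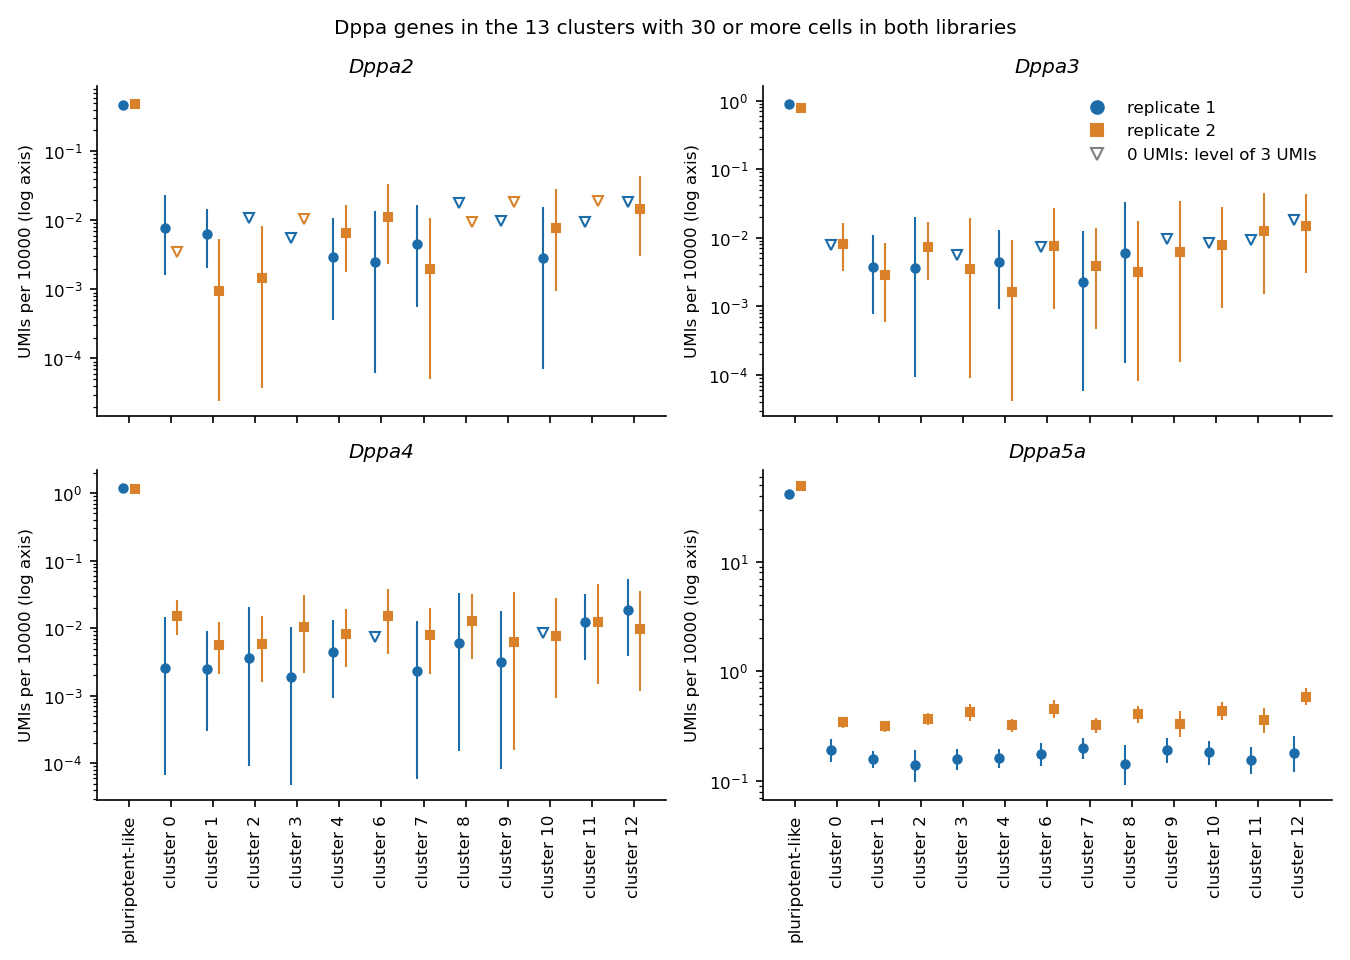
Level of each Dppa gene (UMIs per 10000, log axis) in the pluripotent-like cluster and in 12 other clusters, by library. Points are summed UMIs over summed depth, bars are 95% exact Poisson intervals (counting error only), and open triangles mark clusters with 0 UMIs at the level that 3 UMIs would give. Every gene is highest in the pluripotent-like cluster, by at least 32.5 times the next cluster.

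Nearly all UMIs of the 4 genes came from the pluripotent-like cells, although those were a small part of each library. They supplied 95.5% and 96.3% of Dppa5a UMIs in replicates 1 and 2, 96.6% and 95.8% of Dppa4 UMIs, 97.7% and 96.4% of Dppa3 UMIs and 93.5% and 96.9% of Dppa2 UMIs. What was left outside was 837 and 1982 UMIs of Dppa5a, but only 18 and 52 of Dppa4, 9 and 30 of Dppa3 and 14 and 16 of Dppa2.

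At full depth a UMI of Dppa5a was found in 97.97% of pluripotent-like cells of replicate 1 and in all 393 of replicate 2. It was also found in 23.6% and 40.4% of the other cells. For Dppa4 the shares were 93.9% and 88.0% inside the class and 0.608% and 1.45% outside it. Dppa2 was found in 67.6% and 65.4%, against 0.473% and 0.426%. Dppa3 was found in 60.1% and 53.9%, against 0.304% and 0.824%. At full depth Dppa3 thus had the lowest share of the 4 genes, although its level was above that of Dppa2, but the order of these 2 shares turned in replicate 1 and in replicate 2 once cells were thinned to 10000 UMIs.

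Detection of Dppa5a outside the pluripotent-like cells was read against fibroblast-like cells, which were assumed to lack the transcript. Fibroblast-like cells were a cluster of 205 and 126 cells led by Spp1, Mmp3 and Mmp13, with median depths of 13496 and 10932 UMIs. A UMI of Dppa5a was found in 26.3% and 34.1% of them. With every cell thinned to 3000 UMIs, the shares were 5.85% and 10.3% in fibroblast-like cells against 4.93% and 9.51% in all cells outside the pluripotent-like class, fibroblast-like cells included. The same thinning left 97.3% and 99.7% of pluripotent-like cells with a UMI. At equal depth the share outside did not exceed that in fibroblast-like cells. Whether these UMIs were free RNA or low expression was not tested. Of the rarer genes, fibroblast-like cells held 0 Dppa2 UMIs in both libraries, 0 and 1 Dppa3 UMI and 1 Dppa4 UMI each. Their depth sets the limit, since 3 UMIs there would be 0.00965 and 0.0186 per 10000, above the level of each of these 3 genes in other cells.

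Over the 12 other clusters with at least 30 cells in each library, Dppa5a lay between 0.139 and 0.200 UMIs per 10000 in replicate 1 and between 0.315 and 0.590 in replicate 2. In replicate 1 the Poisson intervals of all 12 clusters held their median of 0.168, so no order among them could be told at this depth. In replicate 2 the intervals of 9 of 12 held the median of 0.365, 1 lay below it and 2 above. The highest cluster there was led by Smoc2, Mest and Cthrc1, and 31 of its 120 Dppa5a UMIs came from 1 cell. Without that cell its level was 0.444 (0.356 to 0.546). Counted per cell rather than per 10000, Dppa5a lay between 0.157 and 0.401 UMIs in replicate 1 and between 0.429 and 0.889 in replicate 2, with no strict order by depth. In replicate 2, for example, the cluster led by 2810417H13Rik, Tcf19 and Tk1 had 0.889 at a median of 18759 UMIs. The cluster led by Cenpa, Cdc20 and Cenpf had 0.710 at 21012. Even so, deeper clusters mostly had more per cell in both libraries. In replicate 1, clusters with a median of 19132 UMIs or more had 0.351 to 0.401. Those of 16014 or fewer had 0.157 to 0.293. In replicate 2, clusters of 17750 or more had 0.609 to 0.889. Those of 14672 or fewer had 0.429 to 0.593, apart from 0.769 in the cluster led by Smoc2, Mest and Cthrc1.

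Cells with no marker UMI had Dppa5a levels near those of cells with one. Other cells with no UMI of any of the 12 markers numbered 1005 in replicate 1 and 1198 in replicate 2, and their Dppa5a level was 0.185 and 0.382. In other cells with a marker UMI it was 0.166 and 0.373. Dppa2 had 0 UMIs in the 1005 marker-free cells of replicate 1, where 3 UMIs would be a level of 0.00213 per 10000, and 5 UMIs in the 1198 of replicate 2.

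Dppa5a made up 95.3% of the UMIs of the 4 genes in other cells of both replicates, near its share inside. Ratios among the rarer genes rested on few UMIs outside, and in replicate 1 Dppa2 and Dppa3 had 200 and 386 UMIs inside but 14 and 9 outside. From summed UMIs, the level outside in replicate 1 was 0.408% of that inside for Dppa5a (interval 0.381 to 0.436), 0.604% for Dppa2 (0.330 to 1.01), 0.302% for Dppa4 (0.179 to 0.477) and 0.201% for Dppa3 (0.0920 to 0.382). In replicate 2 it was 0.739% for Dppa5a (0.707 to 0.772), 0.615% for Dppa2 (0.351 to 0.998), 0.838% for Dppa4 (0.626 to 1.10) and 0.715% for Dppa3 (0.482 to 1.02). Each interval overlapped that of Dppa5a in its library, though for Dppa3 in replicate 1 only at its upper end. Empty droplets were not analysed here, so the free RNA of each library was not measured directly.

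Other pluripotency genes were not all alike in this. Utf1 (0.377% and 0.582%) lay below Dppa5a with an interval that did not overlap in replicate 2 (0.501 to 0.673) but did in replicate 1. Zfp42 (0.223% and 0.398%) lay below Dppa5a in both libraries, with intervals that did not overlap. Nanog, the homeobox factor of naive cells, stood at 2.01% and 1.37% of its level inside. The threonine dehydrogenase gene Tdh stood at 10.6% and 9.33%, the F-box gene Fbxo15 at 25.3% and 14.7% and the RNA-binding protein gene L1td1 at 53.0% and 67.6%. The intervals of Nanog, Tdh, Fbxo15 and L1td1 lay above that of Dppa5a in both libraries.

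**Figure D2:**
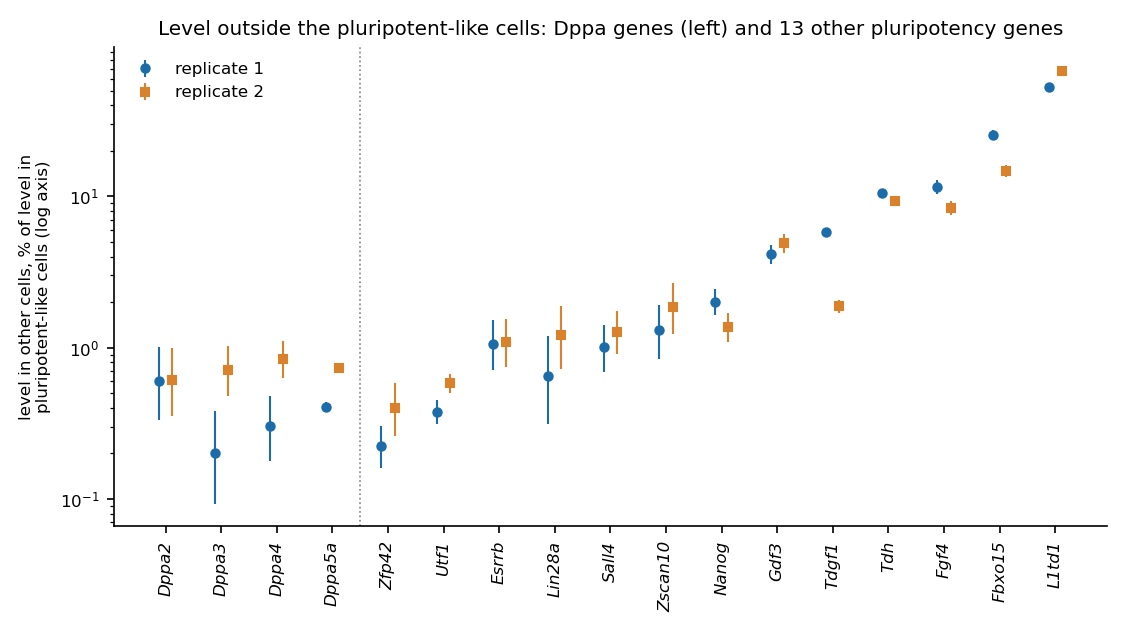
Level in all other cells as a percent of the level in pluripotent-like cells (log axis) for the 4 Dppa genes and 13 other pluripotency genes, by library. Bars are 95% exact Poisson intervals of the UMIs outside (counting error only). The Dppa genes lie between 0.201% and 0.838%, and L1td1 reaches 67.6%.

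The Dppa genes were next followed along the summed UMIs of the 12 markers, with each cell thinned to 3000 UMIs. In replicate 1 Dppa5a was found in 4.89% of the 2044 cells with no marker UMI and 5.83% of the 618 cells with 1. It was found in 17.2% of 337 cells with 2 to 4, 87.6% of 97 cells with 5 to 9 and 84.6% of 13 cells with 10 to 19. In replicate 2 the shares were 9.12%, 13.04%, 39.5%, 99.5% and 100%. The step lay between 2 to 4 and 5 to 9 marker UMIs in both libraries.

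Dppa4 took the same step, from 4.75% to 29.9% of cells in replicate 1 and from 9.57% to 33.0% in replicate 2. Dppa3 went from 3.86% to 16.5% and from 4.07% to 19.8%. Dppa2 went from 2.37% to 13.4% and from 4.55% to 17.0%. Below 2 marker UMIs, none of Dppa2, Dppa3 and Dppa4 was found in more than 1.05% of cells. The range of 2 to 4 marker UMIs was a mix of classes, in which 13.7% and 34.0% of cells were pluripotent-like, against 87.6% and 99.1% in the range of 5 to 9. These bins are ranges of a score and not cell types.

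**Figure D3:**
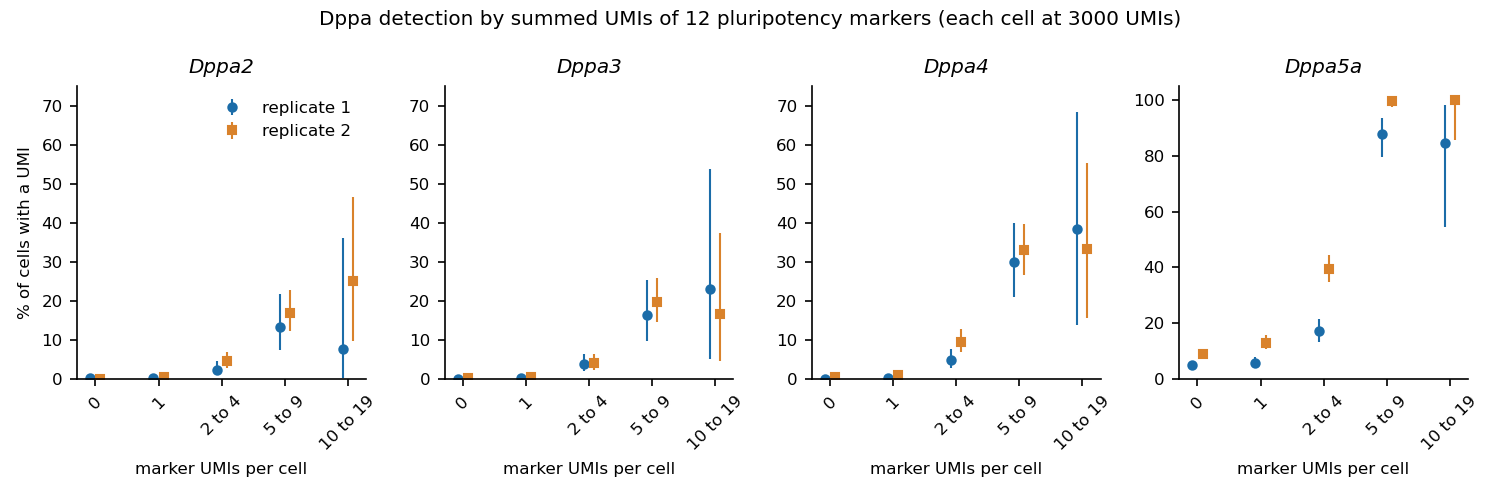
Percent of cells with a UMI of each Dppa gene in bins of the summed UMIs of 12 pluripotency markers, with each cell thinned to 3000 UMIs, by library. Bars are 95% exact binomial intervals (counting error only). Dppa5a passes from 17.2% and 39.5% of cells at 2 to 4 marker UMIs to 87.6% and 99.5% at 5 to 9.

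Within the pluripotent-like cells the genes differed in how evenly they were spread. Each cell was thinned to 10000 UMIs, which kept 143 of 148 and 373 of 393 cells. Dppa4 was then found in 66.4% and 66.5% of cells, Dppa3 in 45.5% and 37.5%, Dppa2 in 34.3% and 36.5%, and Dppa5a in 97.9% and 99.7%. At this depth Dppa2 had the lowest share, with intervals of 26.5 to 42.7 and 31.6 to 41.6 that overlapped those of Dppa3, 37.1 to 54.0 and 32.6 to 42.7. For Dppa2 the variance over cells was 0.987 and 1.05 times the mean, and for Dppa4 it was 1.19 and 1.23 times the mean. Both were near the median of 1.05 to 1.13 for genes within 1.5-fold of their mean.

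Dppa3 was far more uneven. Its variance was 2.94 times its mean in replicate 1 and 2.31 times in replicate 2. Of genes within 1.5-fold of its mean, 4 of 927 in replicate 1 and 12 of 1061 in replicate 2 had a higher ratio. At 10000 UMIs, 54.5% and 62.5% of cells had no Dppa3 UMI, while the highest cells had 13 and 9. At full depth the highest 15 of 148 and 40 of 393 cells held 39.9% and 48.8% of all Dppa3 UMIs, against 27.6% and 26.3% for Dppa4. Median Dppa3 was 2 UMIs in replicate 1 and 1 in replicate 2, and the highest cells had 21 and 29.

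Dppa5a was uneven at a much higher level, with a variance of 6.24 and 7.16 times its mean. Among genes within 1.5-fold of its mean, 2 of 63 and 7 of 71 were higher. The 10th and 90th percentiles of cells were 25.6 and 63.2 UMIs per 10000 in replicate 1 and 28.0 and 72.9 in replicate 2. Its spread was thus a matter of degree, since nearly every cell carried the transcript.

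**Figure D4:**
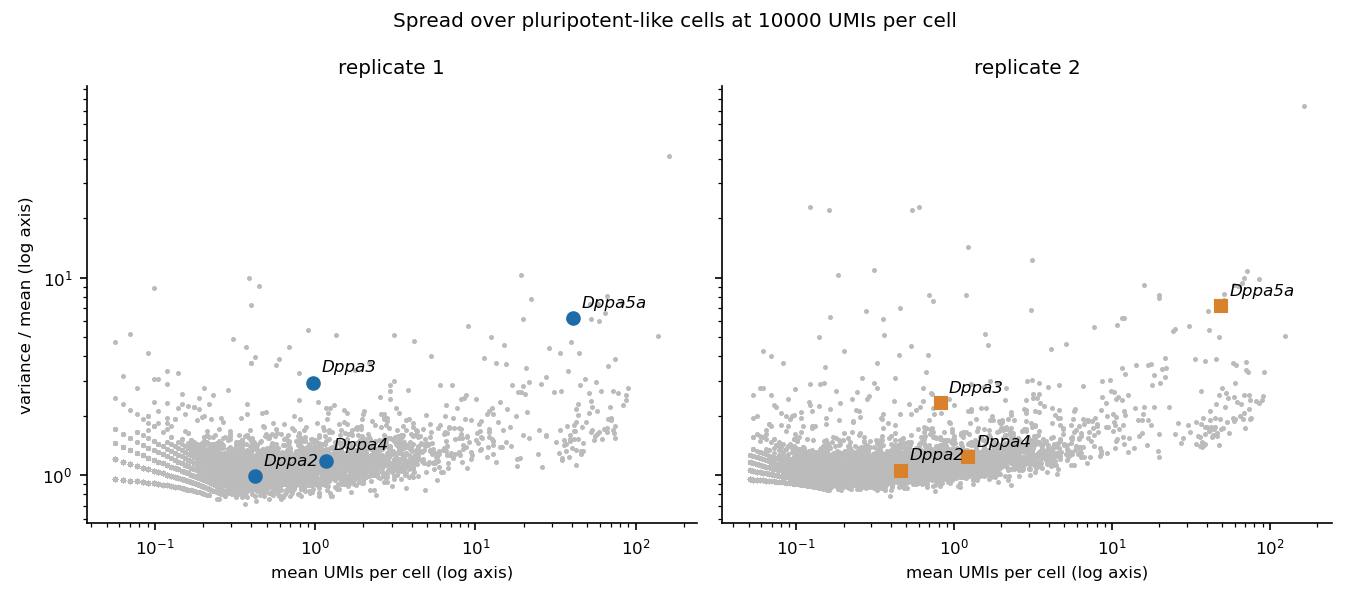
Variance over mean (log axis) against mean UMIs per cell (log axis) over pluripotent-like cells thinned to 10000 UMIs, 143 cells in replicate 1 and 373 in replicate 2. Grey dots are all genes with a mean of at least 0.05, and large symbols are the Dppa genes. Dppa3 (2.94 and 2.31) and Dppa5a (6.24 and 7.16) lie above most genes of their mean, while Dppa2 and Dppa4 lie among them.

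Co-detection was compared with the product of the separate shares at 10000 UMIs. Dppa2 and Dppa4, the chromatin pair, were found together in 25.2% (18.3 to 33.1) and 26.3% (21.9 to 31.1) of cells, against products of 22.8% and 24.2%. Dppa2 and Dppa3 were together in 16.8% (11.1 to 23.9) and 14.7% (11.3 to 18.8), against 15.6% and 13.7%. Dppa3 and Dppa4 were together in 33.6% (25.9 to 41.9) and 23.1% (18.9 to 27.7), against 30.2% and 24.96%. Dppa4 was found in 73.5% of the 49 cells with Dppa2 and 62.8% of the 94 without in replicate 1, and in 72.1% of 136 and 63.3% of 237 in replicate 2. For Dppa3 the same shares went opposite ways, with Dppa4 in 73.8% of cells with Dppa3 and 60.3% without in replicate 1, and in 61.4% and 69.5% in replicate 2. These shares were not tested.

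Pearson correlations over the thinned cells (log of 1 plus UMIs) were 0.225 and 0.140 for Dppa4 with Dppa5a and 0.143 and 0.206 for Dppa2 with Dppa5a. Dppa3 with Dppa5a gave 0.000191 and 0.152, and Dppa2 with Dppa4 gave 0.0385 and 0.162. Dppa2 with Dppa3 gave 0.0133 and 0.0292, and Dppa3 with Dppa4 gave 0.142 and 0.000188. The cells of a library share its preparation, and for pairs without Dppa5a the counts are sparse, so these values are a description.

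All of Dppa2, Dppa3 and Dppa4 were found in 12.6% and 10.5% of the thinned cells, and none of them in 16.8% and 13.1%. Without thinning, at least 1 of the 3 was found in 95.95% of 148 and 96.95% of 393 pluripotent-like cells. In other cells this was 1.38% of 2961 and 2.53% of 3521.

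A few cells departed from this pattern and were chosen after their values were seen. In replicate 1, 4 pluripotent-like cells had fewer than 5 Dppa5a UMIs, of which 3 had 0, while the next lowest cell had 15 and the median was 117. Their depths ran from 22934 to 47137 UMIs. All 4 had 0 UMIs of Dppa2, Dppa3 and Dppa4, and also 0 of Zfp42 and Dnmt3l, the cofactor of the de novo methyltransferases. Among the other 144 pluripotent-like cells of that library, 5 had 0 Zfp42 UMIs and 13 had 0 Dnmt3l UMIs. The 4 cells did carry other pluripotency transcripts, with 26 to 58 UMIs of the 12 markers, 10 to 21 of Tdgf1, 2 to 13 of Utf1 and 4 to 31 of Pou5f1. Sox2 was at 0 in 2 of the 4 cells, against 4 of the other 144, and Tet1 was at 0 in 1, against 4 of 144. Pou5f1 can also come from the STEMCCA cassette, if the counted reads reach it. In replicate 2 no pluripotent-like cell had fewer than 7 Dppa5a UMIs.

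In the opposite direction, 2 other cells of replicate 1 and 11 of replicate 2 had at least 5 Dppa5a UMIs. The highest had 31, with 2 Dppa2 UMIs, 1 Dppa4 UMI and 11 marker UMIs in 28212 UMIs. Doublets were not removed here, and their part in these cells was not tested.

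The pluripotent-like cells were split into 4 sub-clusters without the Dppa genes. Sub-cluster 0 (183 cells) was led by Cd59a, AA467197 and Renbp, and sub-cluster 1 (172 cells) by genes that included the mitotic Nusap1, Prc1 and Cenpf. Sub-cluster 2 (159 cells, 16 and 143 of replicates 1 and 2) was led by Krt18, Baiap2l1, Car4 and Krt19. The Nodal antagonist gene Lefty1, then Krt8, Cyct and Eif2s3y, followed there. Sub-cluster 3 (27 cells) was led by the matrix genes Bgn and Col1a2. Pooled Dppa5a was lowest in sub-cluster 3, at 29.2 (26.8 to 31.7) and 31.9 (30.6 to 33.2) UMIs per 10000. In the remaining sub-clusters it lay between 40.4 and 53.7. Fibroblast genes led the same 27 cells, only 5 of which were from replicate 1, and a mix of RNA from other cells was not tested.

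Dppa3 was highest in sub-cluster 2 in both libraries, at 1.81 (1.43 to 2.27) over 16 cells and 0.990 (0.896 to 1.09) over 143 cells. In the mitotic sub-cluster 1 it was 0.886 (0.771 to 1.01) and 0.536 (0.455 to 0.627), and these intervals did not overlap those of sub-cluster 2. In replicate 1, however, 1 cell held 21 of the 75 Dppa3 UMIs of sub-cluster 2. At full depth a Dppa3 UMI was found in 68.8% and 62.9% of cells of sub-cluster 2. In sub-cluster 1 the shares were 64.5% and 46.9%. Dppa3 and Dppa5a varied over cells by more than counting error, so the intervals of both are too narrow. Dppa4 was also highest in sub-cluster 2, at 1.57 (1.21 to 2.00) and 1.35 (1.24 to 1.47). Against sub-cluster 1, at 1.27 (1.13 to 1.42) and 1.03 (0.919 to 1.16), the intervals were apart in replicate 2 only. Dppa2 ran from 0.305 to 0.536 and was lowest in sub-cluster 3 in both libraries (0.312 and 0.305), on 6 and 23 UMIs. In replicate 1 the Dppa2 intervals of all 4 sub-clusters overlapped. These intervals cover counting error only, and cells of a sub-cluster are not replicates.

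**Figure D5:**
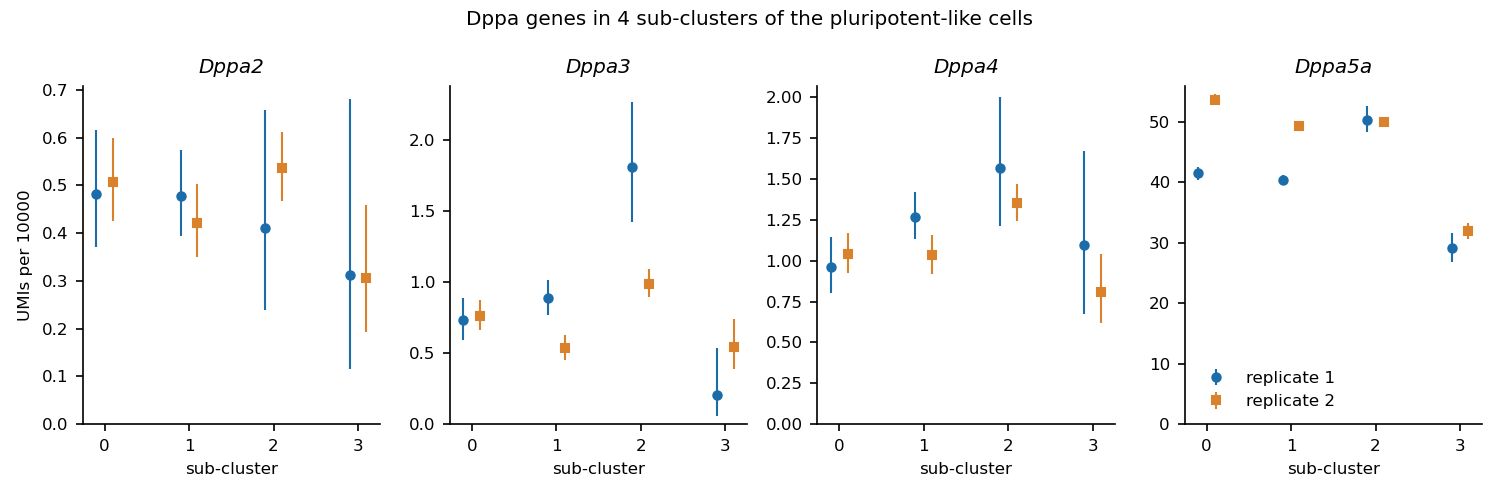
Level of each Dppa gene (summed UMIs per 10000) in the 4 sub-clusters of the pluripotent-like cells, by library. Bars are 95% exact Poisson intervals (counting error only). Dppa5a is lowest in sub-cluster 3 (29.2 and 31.9) and Dppa3 highest in sub-cluster 2 (1.81 and 0.990).

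Between the libraries, all 4 genes were higher in replicate 2 when all cells were pooled. Replicate 2 also held the larger share of pluripotent-like cells. Within those cells the ratio, from summed UMIs, of replicate 2 to replicate 1 was 1.03 for Dppa2 (0.874 to 1.22), 0.956 for Dppa4 (0.861 to 1.06), 0.862 for Dppa3 (0.763 to 0.976) and 1.201 for Dppa5a (1.18 to 1.22). In the other cells the ratio was 1.05 for Dppa2 (0.480 to 2.32), 3.06 for Dppa3 (1.42 to 7.34), 2.66 for Dppa4 (1.53 to 4.82) and 2.18 for Dppa5a (2.01 to 2.36). With all cells pooled it was 2.02, 1.77, 1.96 and 2.42 for the same genes. There is 1 library on each side, so none of these ratios has a replicate check. Within pluripotent-like cells the intervals of Dppa3 and Dppa5a are too narrow, since both varied over cells by more than counting error.

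Genes of related function were described from fixed lists. Of 16 naive and late pluripotency genes, 14 were tested and all 14 were higher in pluripotent-like cells, with a median difference of 3.34 on the log2(mean + 0.1) scale against -0.13 for all genes tested, of which 28.7% were called higher. Of the 14, 6 were under 0.02 in other cells and passed the filter through the pluripotent-like cells alone, so their calls add no support. Pou5f1 differed by 5.71, Sox2 by 4.52, Zfp42 by 4.41 and Dnmt3l by 3.79 (limma adjusted p 9.0e-08, 9.2e-08, 4.3e-06 and 1.2e-07). Dppa4 and Dppa3 lay on either side of this median, and Dppa5a above Pou5f1.

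Dppa3 acts on DNA methylation, and Dppa2 and Dppa4 guard promoters against it. Of 14 methylation and demethylation genes, 11 were higher in pluripotent-like cells, 2 were lower and 1, Dnmt3a, did not pass (-0.28, limma adjusted p = 0.15). Over all genes tested, 28.7% were higher and 43.0% lower. Those with the largest differences were Dnmt3l, the dioxygenase gene Tet1 (3.54), the chromatin remodeller gene Hells (2.70) and the de novo methyltransferase gene Dnmt3b (2.50), with limma adjusted p of 1.2e-07, 1.2e-07, 1.9e-07 and 6.3e-07. Of the 11, Dnmt3l alone was under 0.02 in other cells and passed the filter through the pluripotent-like cells. The call of Dnmt3l therefore adds no support. Uhrf1, whose protein Dppa3 binds, was higher by 1.78 (limma adjusted p = 1.3e-06) and is named after its values were seen. Apobec1 (-1.46) and Tet3 (-0.89) were lower.

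Some germline and 2-cell stage genes are known targets of Dppa2 and Dppa4. Of 31 listed, 18 were in the table and 7 were tested, of which 5 were higher, 1 was lower (Tdrkh, -0.63, limma adjusted p = 2.5e-04) and 1 did not pass (Nanos3, -0.04, limma adjusted p = 0.67). Over all genes tested, 28.7% were higher and 43.0% lower. Of the 5 called higher, 4 were under 0.02 in other cells and passed the filter through the pluripotent-like cells alone, so the count is no support. The same 4 are the genes named here. Dazl, a germ cell RNA-binding protein gene, was at 0.298 and 0.637 in pluripotent-like cells against 0.000499 and 0.00469 in others (difference 2.40, limma adjusted p = 8.3e-06). The tubulin gene Tuba3a differed by 2.16, the transposon-silencing gene Mael by 1.65 and the synaptonemal gene Sycp3 by 1.60 (limma adjusted p 2.0e-06, 1.7e-04 and 4.9e-04). All 4 averaged more in pluripotent-like cells of replicate 2 than of replicate 1. The Zscan4 genes and other 2-cell genes of the list were not among the rows of the table.

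Of 11 genes of the KH-domain family of Dppa5a or of the subcortical maternal complex, 8 were in the table and 3 were tested. Ooep, the KH-domain gene next to Dppa5a, was at 0.954 and 1.85 in pluripotent-like cells against 0.0371 and 0.0511 in others (difference 3.32, limma adjusted p = 1.2e-06). Zbed3 (-0.56, limma adjusted p = 5.5e-04) and Tle6 (-0.25, limma adjusted p = 0.026) were lower. With 28.7% of all genes higher and 43.0% lower, 1 and 2 of 3 are near the background.

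Across 26 profiles, 13 clusters in each of 2 libraries, the genes with a pattern most like that of Dppa2 were Eras, Fmr1nb, Usp26, Rec114 and Lin28a (Pearson r from 0.997 for Eras to 0.996 for Lin28a). Those most like Dppa3 were Rbmxl2, Tcl1, Lin28a, Usp26 and Gm7325. For Dppa4 they were Dnmt3l, Lin28a, Eras, Tcl1 and Usp26. For Dppa5a they were Pou5f1 (r = 0.991), Dnmt3l, Utf1, Platr3 and Hsf2bp. These correlations rest on 1 high cluster in each library, and the profiles share their libraries.

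Over pluripotent-like cells thinned to 10000 UMIs, the genes named were those with the highest correlation among 6107 compared. By the lower r of the 2 libraries, values for Dppa5a were above those for the other Dppa genes. However, Dppa5a averaged 40.7 and 49.4 UMIs per cell there, against 0.420 to 1.23 for the others. These sparse counts limit the comparison. Closest to Dppa5a were Hspb1, a small heat-shock protein gene, with r of 0.386 in replicate 1 and 0.409 in replicate 2, then Sept1 (0.385 and 0.339), its neighbour Ooep (0.304 and 0.387), Cox5a (0.303 and 0.395) and Pou5f1 (0.298 and 0.348). Closest to Dppa3 were Rec114 (0.223 and 0.210), 1110008L16Rik, Sfn, Ifitm1 (0.427 and 0.192) and Slc25a5. The highest for Dppa2, Ooep, reached 0.217 and 0.188, and Lsm8, Lrrc2, Uqcrb and Lmnb2 followed. The highest for Dppa4, Mkrn1, reached 0.167 and 0.173, and Ehd1, 4833420G17Rik, Ptcd2 and Prdx1 followed.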

How the data were processed

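The authors aligned and counted reads with Cell Ranger (version 2.1.1, mm10), kept cells by detected genes and mitochondrial share in Seurat, and deposited natural log values of 1 plus UMIs per 10000. Whole UMIs were recovered from 100% of values within 0.01 of a multiple of the smallest step of each cell. Libraries held 54145377 and 64654306 UMIs, with 4753 to 60990 per cell. Replicates are the 2 libraries, numbered in accession order. Clusters (Leiden, resolution 1, 2000 variable genes) left out 660 genes, namely the Dppa genes, all list genes, the cassette factors and X- and Y-linked genes. Doublets were not called. A cluster was named where at least 3 and at least 50% of the markers of a class were 2-fold higher and 1 or more stood among its top 10 genes, a rule set after the clusters were seen.

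Class means per library (4 profiles) were fitted with limma (version 3.58.1) on log2(mean + 0.1), with class and library as terms, over genes averaging 0.02 per 10000 or more. P-values were adjusted over all genes by Benjamini-Hochberg, with a threshold of 0.05. Intervals are 95% exact Poisson or binomial and cover counting error only. Transcript copies were found with BLAST (version 2.17.0) at 90% identity or more. Named genes were the 4 Dppa genes, the 4 called genes of each list with the largest difference, and the 5 genes most like each Dppa gene in 2 measures. Genes, lists and tests were chosen with earlier results of these data known.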

Additional observations from a re-analysis of the deposited data

How the results depend on the processing

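All 57 repeats of the 4 Dppa differences kept their direction, and all repeats with a test kept their call, over pseudocounts, filters, clusterings, references, classes taken from marker UMIs, the library term and the removal of the deepest cells. The other resolutions and the larger set of variable genes picked the same number of pluripotent-like cells, 541, so they test little. The reference of other cells without a marker UMI was added after seeing the data. The difference ranged from 0.56 to 5.3 for Dppa2, 0.88 to 5.99 for Dppa3, 1.13 to 6.16 for Dppa4 and 5.2 to 7.43 for Dppa5a, lowest with a pseudocount of 1 and highest with 0.01. Adjusted p reached 0.0053 with no filter. With means of at least 0.1, Dppa5a alone could be tested. Leaving out 1 library gave 2.50 to 2.50 for Dppa2, 3.05 to 3.34 for Dppa3, 3.52 to 3.68 for Dppa4 and 6.71 to 7.27 for Dppa5a, with no test. The library term pairs the classes within a library, and without it the adjusted p was 7.5e-06 for Dppa2, 8.3e-06 for Dppa3, 6.1e-06 for Dppa4 and 1.0e-05 for Dppa5a.

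With means of at least 0.1, 9 naive genes were higher, as fewer were tested. Germline genes called higher numbered 2 with a pseudocount of 1, 8 with no filter and 0 with means of at least 0.1, and 0 were lower against fibroblast-like cells. In the list of the KH-domain family and the subcortical maternal complex, 3 genes were called higher with no filter. From that list 1 was lower with a pseudocount of 1 and with means of at least 0.1. List counts without 1 library were not run, since 1 library leaves no test.

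From summed UMIs, the level of Dppa2 was 0.472. Shares of cells moved with depth, as their construction sets. They were 22.6%, 27.1% and 43.9% for Dppa2, Dppa3 and Dppa4 at 5000 UMIs, and 55.4%, 53.5% and 84.8% at 20000. With 2 UMIs required they were 7.38%, 22.2% and 32.1%. Dppa4 was 63.4% with another thinning seed. The ratio of joint detection to its product was 1.14 for Dppa2 and Dppa3 with another seed, 0.982 at 5000, 1.10 at 20000 and 1.22 with 2 UMIs. For Dppa2 and Dppa4 it was 0.952, 1.05 and 1.13 in the last 3 settings. Each ratio is a mean over the 2 libraries. At 5000 the libraries lay on opposite sides of 1, at 0.791 and 1.17 for Dppa2 with Dppa3. For Dppa2 with Dppa4 they gave 1.02 and 0.879 at 5000. With 2 UMIs that pair gave 0.681 on 2 cells in replicate 1 and 1.58 on 16 cells in replicate 2. Leaving out 1 library gave levels of 0.479 to 0.480 for Dppa2, 0.773 to 0.930 for Dppa3, 1.17 to 1.23 for Dppa4 and 41.9 to 49.9 for Dppa5a. It gave ratios of 1.08 to 1.08, 1.08 to 1.11 and 0.924 to 1.11 for the pairs Dppa2 with Dppa3, Dppa2 with Dppa4 and Dppa3 with Dppa4.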
